A study of Mus musculus with 2 samples.

Results

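The 10 genes described here belong to the Wnt and beta-catenin pathway and were measured by total RNA sequencing of mouse hematopoietic stem cells, the bone marrow cells that give rise to all blood lineages. The genes were Fzd7, Lrp6, Axin1, Axin2, Apc, Gsk3b, Ctnnb1, Tcf7, Lef1 and Tcf7l2, chosen by symbol and not by a level in these libraries. All 10 were matched to a gene identifier, out of 43346 mouse gene identifiers in the gene tables. The data comprised 2 libraries from pools of 100 cells each, called biological replicates 1 and 2 in the labels. Both came from adult male C57BL/6J mice aged 5 to 6 weeks and unmodified as far as the labels say. The labels name a single donor and separate biosamples and do not say if different animals were used, so technical variation may make up part of any difference between the pools. No second condition was present, so levels were described and no test between groups was possible.

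Wnt proteins are secreted ligands that bind a Frizzled receptor together with Lrp5 or Lrp6. Without that signal, a cytoplasmic destruction complex built on Axin and Apc lets casein kinase 1 and glycogen synthase kinase 3 phosphorylate beta-catenin, which is then degraded. With it, beta-catenin accumulates, enters the nucleus and acts with DNA-binding factors of the TCF/LEF family on target genes such as Axin2. In blood, the pathway has been studied for its part in stem cell maintenance, and Tcf7 and Lef1 are best known for their roles in T and B cell development.

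Replicate 1 held 48313341 expected counts and replicate 2 held 28947093, an expected count being the estimated number of reads from a gene. Nuclear protein coding genes carried 30.0% of the TPM in replicate 1 and 26.5% in replicate 2, TPM being the transcript level scaled for length and depth to a fixed total per library. A gene was called detected with at least 1 TPM and at least 10 expected counts in both libraries. This held for 10 of 12 stem cell markers, whose levels summed to 597 TPM in replicate 1 and to 437 TPM in replicate 2. The exceptions were Hoxb5, at 0 and 0.16 TPM, and Slamf1, at 2.87 and 0.36 TPM. Kit stood at 108 and 117 TPM and Hlf at 162 and 98.0 TPM. Both libraries also carried markers of other cell types. In replicate 1 and replicate 2, 10 neutrophil markers summed to 5.11 and 343 TPM, and 12 B lineage markers to 51.9 and 77.3 TPM. Higher in replicate 1 were 10 endothelial markers, at 75.1 and 43.3 TPM, and 10 stromal and bone markers, at 56.8 and 50.3 TPM. The 12 T cell markers were as well, at 16.5 and 5.07 TPM. The sort gate of the cells was not stated in the labels.

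Of the pathway genes, 8 of 10 were detected in both libraries, where 45.5% of the 21461 nuclear protein coding genes were. Tcf7 passed in replicate 1 alone and Axin2 in neither library. By mean level the order was Ctnnb1 at 52.5 ± 1.81 TPM, Axin1 at 46.2 ± 13.8, Gsk3b at 28.8 ± 1.07, Apc at 27.4 ± 2.02, Tcf7l2 at 22.6 ± 16.3, Lrp6 at 11.5 ± 0.25, Fzd7 at 9.25 ± 1.56, Lef1 at 4.84 ± 5.00, Tcf7 at 2.28 ± 2.96 and Axin2 at 0.64 ± 0.35 TPM (SD, n = 2). Most neighbours in that order had overlapping ranges over the libraries. The exceptions were Axin1 over Gsk3b and Lrp6 over Fzd7, where the lower library of the first gene stood above the higher library of the second. The core of beta-catenin and its destruction complex thus formed the upper end, the receptors the middle, and Lef1, Tcf7 and the feedback target Axin2 the lower end. The median TPM of all coding genes detected in both libraries was 14.0 in replicate 1 and 12.5 in replicate 2.

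**Figure D1:**
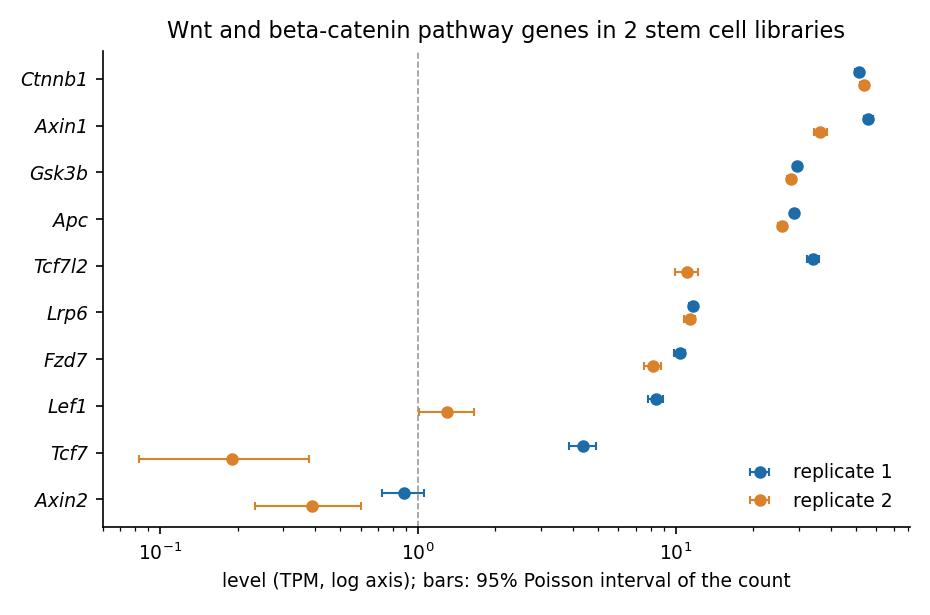
Level of each of the 10 genes in TPM on a log axis, replicate 1 (blue) above replicate 2 (orange), with bars for the 95% exact Poisson interval of the count and a dashed line at the detection limit of 1 TPM. Ctnnb1 lies at 51.3 and 53.8 TPM, while Tcf7 lies at 4.37 and 0.19 TPM.

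The receptors were steady between the libraries. Fzd7, the Frizzled receptor (chr1:59482424-59486955, plus strand, GRCm38), had 10.4 TPM from 1465 counts in replicate 1 and 8.15 TPM from 651 counts in replicate 2. Lrp6, the co-receptor whose phosphorylated tail recruits Axin (chr6:134446476-134566965, minus strand), had 11.7 TPM from 3464 counts in replicate 1 and 11.3 TPM from 1804 counts in replicate 2. On the log2(TPM + 1) scale, replicate 1 minus replicate 2 was 0.31 for Fzd7 and 0.04 for Lrp6. Both differences were smaller than 0.42, the median absolute difference over the 9769 coding genes detected in both libraries.

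Among the other surface and secreted components, few were detected, where 45.5% of nuclear protein coding genes were. None of 19 Wnt ligand genes was, and 17 had no count in either library. Taken as 3 counts over the gene's length, the limit of a zero count was 0.0213 to 0.0838 TPM in replicate 1 and 0.0377 to 0.149 TPM in replicate 2, for counting error only. The deposited upper bounds of these 17 genes were wider, with medians of 0.0557 and 0.0976 TPM and highest values of 1.11 and 2.00 TPM. They reached 1 TPM for 2 of the 17 in replicate 1 and for 3 in replicate 2. The other two, Wnt10a and Wnt10b, had no count in replicate 1 and 11 and 8 counts in replicate 2, or 0.26 and 0.21 TPM. Of the proteins needed to secrete Wnts, the carrier Wls had 13.4 TPM in replicate 1 and 5.31 TPM in replicate 2. The acyltransferase Porcn had 1.77 and 0.90 TPM.

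Fzd7 was the most abundant of 10 Frizzled genes in both libraries. Fzd6 was the only other one detected in both, with 5.28 TPM in replicate 1 and 2.81 TPM in replicate 2. Fzd9 passed in replicate 1 alone, at 1.92 and 0.53 TPM. Fzd3, Fzd5 and Fzd8 passed in replicate 2 alone, with 0.76, 0.63 and 0 TPM in replicate 1 against 1.16, 1.08 and 1.35 TPM in replicate 2. Of 6 co-receptor genes, Lrp5, the relative of Lrp6, was the highest, with 26.6 TPM in replicate 1 and 20.6 TPM in replicate 2. The receptor tyrosine kinase Ryk had 1.77 and 4.46 TPM and Ptk7 had 1.89 and 1.86 TPM, both detected. Ror2 had 0 and 0.21 TPM, and Ror1 had no count in either library.

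Of 9 genes of the R-spondin axis, which sets how many Frizzled receptors stay on the surface, 1 was detected in both libraries. This was Znrf3, a ubiquitin ligase that removes Frizzled, with 9.90 TPM in replicate 1 and 7.27 TPM in replicate 2. Its relative Rnf43 had no count in replicate 1 and 148 counts, or 6.45 TPM, in replicate 2. The R-spondin receptor Lgr4 had 0 and 1.02 TPM, Lgr5 had 0.01 and 0.17 TPM and Lgr6 had 0 and 0.10 TPM. At low levels, zeros of a single library lay mostly in replicate 1, the deeper one. Among 1242 coding genes that stood between 1 and 3 TPM in replicate 1, 2.58% lacked any count in replicate 2, while among 1640 at that level in replicate 2, 26.1% lacked any in replicate 1. The level of Rnf43 lies above that range. Of 14 secreted and surface inhibitors, Kremen1, a Dickkopf receptor, and Sfrp4, a secreted Wnt-binding protein, were detected, at 3.32 and 3.04 TPM and at 1.98 and 2.00 TPM in replicates 1 and 2. Sfrp1 had 1.14 and 0.12 TPM, Notum had 0 and 0.05 TPM, and 10 had no count in either library.

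**Figure D2:**
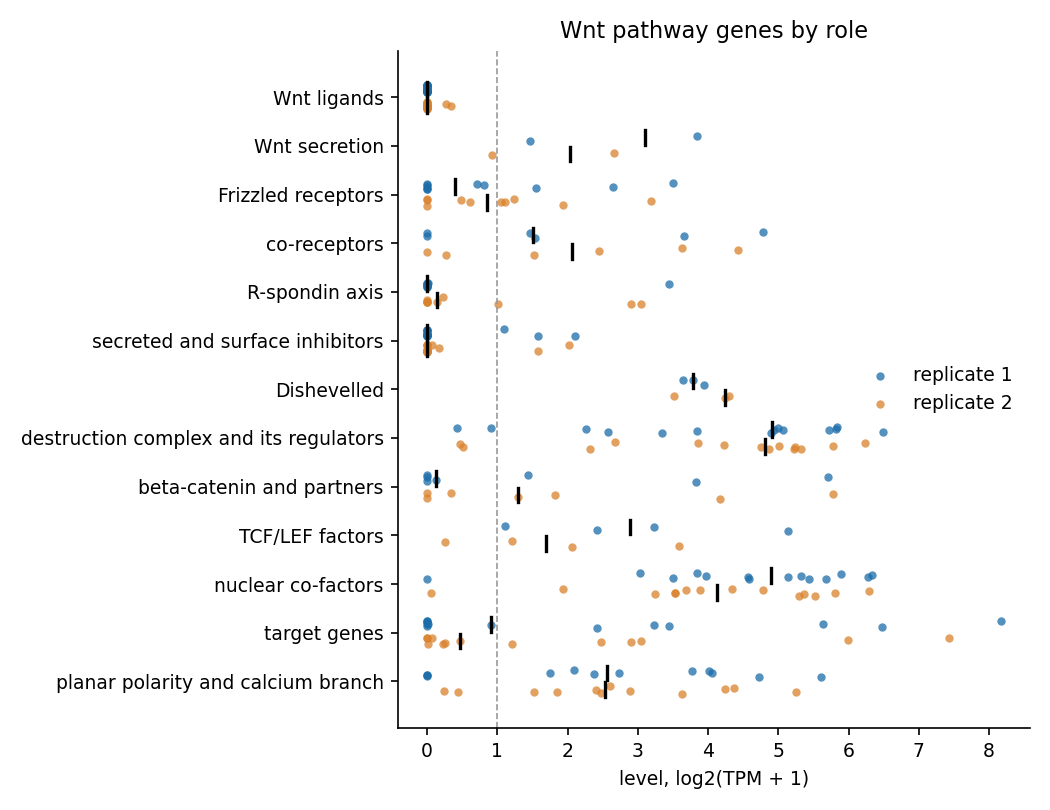
Level of the listed pathway genes by role on the log2(TPM + 1) scale, replicate 1 (blue) above replicate 2 (orange), with black bars at each list's median and a dashed line at 1 TPM. The medians of the ligand and inhibitor lists are 0 TPM in both libraries, and that of the destruction complex is 29.2 TPM in replicate 1 and 27.0 TPM in replicate 2.

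The scaffolds of the destruction complex were at opposite ends of the range. Axin1, the limiting scaffold of the complex (chr17:26138688-26195811, plus strand), had 55.9 TPM from 2203 counts in replicate 1 and 36.4 TPM from 1233 counts in replicate 2. Axin2, a scaffold that is itself a target of the pathway (chr11:108920349-108950783, plus strand), had 0.88 TPM from 117 counts in replicate 1 and 0.39 TPM from 19 counts in replicate 2. The exact Poisson 95% intervals of the Axin2 counts were 0.73 to 1.06 TPM in replicate 1 and 0.23 to 0.60 TPM in replicate 2, so transcripts were counted in both pools at a level under or close to the limit. Within a library, the log2 ratio of Axin1 to Axin2, with 0.1 TPM added to each, was 5.84 in replicate 1 and 6.22 in replicate 2. Apc, the large tumour suppressor that binds Axin and beta-catenin (chr18:34220924-34322552, plus strand), had 28.8 TPM from 6483 counts in replicate 1 and 25.9 TPM from 2957 counts in replicate 2. Its relative Apc2 stayed below detection at 0.34 and 0.43 TPM, which gave an Apc to Apc2 log2 ratio of 6.04 in replicate 1 and 5.62 in replicate 2. In both scaffold pairs, the same relative carried nearly all of the measured transcript in each pool.

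Of the complex and its regulators, 12 of 14 genes were detected in both libraries, all but Axin2 and Apc2. Among all nuclear protein coding genes, 45.5% were. None of the 12 differed by more than 2-fold, where 15.4% of all coding genes detected in both did. With 12 genes, that cannot be set apart from the background. Casein kinase 1 alpha, the priming kinase of beta-catenin encoded by Csnk1a1, was the highest, with 88.9 TPM in replicate 1 and 74.4 TPM in replicate 2. Gsk3a had 52.0 and 54.1 TPM, Tnks2, whose product marks Axin for degradation, had 55.3 and 36.6 TPM, and Csnk1d had 32.5 and 39.2 TPM. The 3 Dishevelled genes, which carry the signal from Frizzled to the complex, were all detected. Dvl1 had 11.5 and 17.9 TPM, Dvl2 had 12.8 and 10.4 TPM, and Dvl3 had 14.4 and 18.7 TPM.

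Gsk3b, the kinase that phosphorylates beta-catenin for degradation (chr16:38089001-38246084, plus strand), had 29.6 TPM from 4610 counts in replicate 1 and 28.1 TPM from 2623 counts in replicate 2. Its log2 ratio to Gsk3a was -0.81 in replicate 1 and -0.94 in replicate 2, so Gsk3a was the more abundant kinase transcript in both. Gsk3b has a pair of coding transcripts whose coding regions differ by a short exon. The transcripts also differ in their start and in their length outside the coding region. Gsk3b-201, which encodes 420 codons, held 48.1% of the gene's TPM in replicate 1 and 53.8% in replicate 2. Gsk3b-202, which encodes 433 codons, held 33.2% and 37.6%. The difference in codons is exon 9 of 12 of Gsk3b-202, whose 39 bases add 13 codons in frame (chr16:38217113-38217151, GRCm38, plus strand). It is shown because it is what separates both Gsk3b products measured here, and no letter is in capitals:
Gsk3b exon 9: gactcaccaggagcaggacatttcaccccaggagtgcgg
The transcript with this exon made up 40.8% of the TPM of that pair in replicate 1 and 41.2% in replicate 2. That share was nearly the same in both pools. It depends on the annotated lengths and does not measure inclusion of the exon alone. Gsk3b-202 is 1750 bases long with 512 and 310 counts, and Gsk3b-201 is 8303 bases long with 3731 and 2238 counts. The remainder was mostly the retained-intron transcript Gsk3b-203, at 18.8% in replicate 1 and 6.48% in replicate 2.

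Ctnnb1, which encodes beta-catenin (chr9:120929216-120960507, plus strand), had 51.3 TPM from 3979 counts in replicate 1 and 53.8 TPM from 2630 counts in replicate 2. Its difference, replicate 1 minus replicate 2, was -0.07 on the log2(TPM + 1) scale, and it stood above 87.7% of detected coding genes in replicate 1 and above 90.7% in replicate 2. Ctnnb1 was the only member with a lower TPM in replicate 1. Jup, which encodes plakoglobin, the closest relative of beta-catenin, had 0.09 TPM from 9 counts in replicate 1 and 2.54 TPM from 140 counts in replicate 2. The log2 ratio of Ctnnb1 to Jup was 8.08 in replicate 1 and 4.35 in replicate 2, so beta-catenin transcripts exceeded those of plakoglobin in each library by a very different margin. Of 7 genes of beta-catenin and its partners, Ctnna1, which links the cadherin complex to actin, had 13.2 and 17.1 TPM. Ctnnbip1, which encodes an inhibitor of the beta-catenin and TCF contact, had 1.72 and 1.46 TPM and was the last of 3 detected in both. Cdh2 had 0 and 0.26 TPM, and the other two had no count in either library.

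The nuclear factors were the least steady of the genes. Tcf7l2, also called Tcf4 (chr19:55741820-55933654, plus strand), had 34.1 TPM from 1492 counts in replicate 1 and 11.1 TPM from 372 counts in replicate 2. Lef1 (chr3:131110471-131224356, plus strand) had 8.37 TPM from 906 counts in replicate 1 and 1.30 TPM from 67 counts in replicate 2. Tcf7, also called TCF-1 (chr11:52252371-52283014, minus strand), had 4.37 TPM from 279 counts in replicate 1 and 0.19 TPM from 8 counts in replicate 2. All of these were higher in replicate 1, and the exact Poisson intervals of the counts did not overlap between libraries. Such intervals cover counting error only and not variation between pools. Those of Axin1 did not overlap either, at 53.6 to 58.3 TPM in replicate 1 and 34.4 to 38.5 TPM in replicate 2. For Tcf7 the intervals were 3.87 to 4.91 TPM in replicate 1 and 0.08 to 0.38 TPM in replicate 2. Tcf7l1, the remaining factor, went the other way with 1.15 TPM in replicate 1 and 3.19 TPM in replicate 2.

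The TPM of Tcf7l2 was 3.08 times as high in replicate 1 as in replicate 2, that of Lef1 6.44 times and that of Tcf7 23.0 times. On the log2(TPM + 1) scale, replicate 1 minus replicate 2 was 1.54 for Tcf7l2, 2.03 for Lef1 and 2.17 for Tcf7. Of the 8 members detected in both libraries, Tcf7l2 and Lef1 were over 2-fold apart, both higher in replicate 1. Among the 9769 coding genes detected in both, 15.4% were over 2-fold apart and 10.1% were over 2-fold higher in replicate 1. With 8 members, a count of 2 cannot be set apart from that background. For 5 of the 8, the absolute difference was below the 0.42 of all coding genes, and the median over the 8 was 0.23. The median signed difference of all coding genes was 0.12, so a small shift toward replicate 1 was general. It was -0.01 on counts scaled by TMM (trimmed mean of M-values), where 5.34% of coding genes were over 2-fold higher in replicate 1 and 5.99% in replicate 2. Tcf7l2 and Lef1 stayed over 2-fold apart on that scale, at 1.02 and 2.42, whereas Axin1 changed sign, at 0.61 by TPM and -0.09 by TMM. For bulk pools, fewer cells that express a gene and less of its RNA per cell cannot be told apart.

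**Figure D3:**
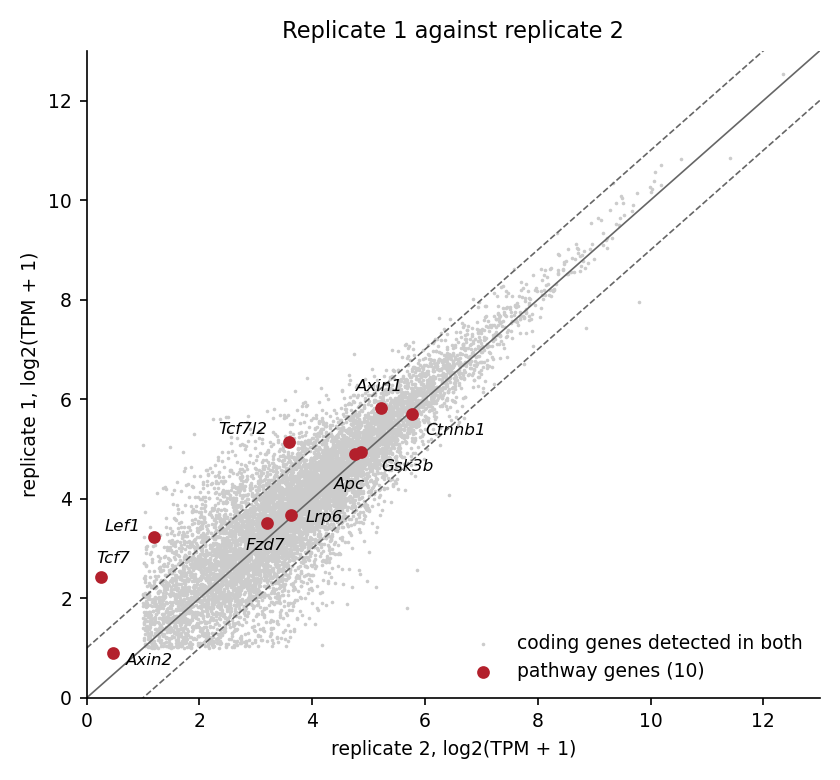
Replicate 1 against replicate 2 on the log2(TPM + 1) scale, with coding genes detected in both libraries in grey, the 10 pathway genes in red, a solid line of equality and dashed lines at 2-fold. Tcf7l2 and Lef1 lie above the upper dashed line with differences of 1.54 and 2.03, as does Tcf7, which was below the limit in replicate 2.

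Markers of T and B cells differed between the libraries in both directions. Of 12 T cell markers, Thy1, which stem cells also express, was the only one detected in both libraries, with 9.06 TPM in replicate 1 and 2.92 TPM in replicate 2. The CD3 chains Cd3e and Cd3g had 3.56 and 3.18 TPM in replicate 1 and no count in replicate 2. Others went the opposite way but stayed under the limit of 1 TPM. These were Cd247, Cd4 and Cd5, at 0 TPM in replicate 1 and 0.97, 0.95 and 0.11 TPM in replicate 2. Cd3d, Cd8a, Cd8b1 and the T cell receptor constant gene Trac had no count in either library. Summed over the list, the level was 16.5 TPM in replicate 1 against 5.07 in replicate 2. B lineage markers ran the opposite way: 4 of 12 passed the limit in replicate 1 and 11 of 12 in replicate 2. A shift in this direction was general at low levels. With every coding gene counted, detected or not, the median level stood at 0.19 TPM for replicate 1, against 1.02 TPM for replicate 2. The B lineage count was not set against a per-library share of coding genes, so it cannot be called particular to that lineage. The part of the T and B cell markers in the Lef1 and Tcf7 difference, and that of the smaller depth of replicate 2, was not tested.

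The annotated Lef1 transcripts measured here begin either at an upstream first exon or in a cluster of starts downstream of it. In the annotation, the upstream exon opens the reading frame whose start holds the beta-catenin binding end. Transcripts beginning there held 62.1% of the Lef1 TPM in replicate 1 and 62.4% in replicate 2, a mean of 62.2% ± 0.21 (SD, n = 2). They had 546 of 906 counts in replicate 1 and 48.0 of 67 counts in replicate 2. The upstream share was thus nearly equal by TPM, whereas by counts it was larger in replicate 2. With 67 counts in replicate 2, the SD does not measure the precision of the share. The make-up within each class was not equal. Lef1-202, with 369 codons, held 62.1% in replicate 1 and 43.3% in replicate 2. Lef1-204, with 384 codons, held 0% and 19.0%. The full-length Lef1-201, with 397 codons, held 0% in both as a point estimate. Its deposited upper bounds were 0.94 TPM in replicate 1 and 0.45 TPM in replicate 2.

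The downstream class was carried by different transcripts in each library. It follows the annotated start of each transcript, and whether RNA began at those starts was not tested. In replicate 1 the class was all Lef1-205, a retained-intron transcript without a coding region, at 37.9% from 360 counts, against 1.21% in replicate 2. Lef1-203 and the retained-intron transcript Lef1-206 were at 0% in replicate 1, against 23.3% from 12.0 counts and 13.1% from 6.00 counts in replicate 2. Lef1-203 encodes 331 codons and is 66 codons shorter than Lef1-201, with 3 codons of its own at the start. Its start codon lies 1340 bases downstream of that of the long form. The window around its start, from 250 bases before to 50 bases after the RefSeq start (chr3:131112541-131112840, GRCm38.p6, plus strand), is shown because the only coding Lef1 transcript without the beta-catenin binding end starts there. Capitals mark its start codon:
Lef1 downstream window: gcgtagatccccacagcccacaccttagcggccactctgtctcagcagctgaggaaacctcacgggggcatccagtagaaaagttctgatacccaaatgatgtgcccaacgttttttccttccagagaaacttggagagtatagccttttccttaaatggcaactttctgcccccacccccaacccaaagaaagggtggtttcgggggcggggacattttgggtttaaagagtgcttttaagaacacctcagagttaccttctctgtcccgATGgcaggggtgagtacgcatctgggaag
The start codon begins at base 22 counted from the RefSeq start, and the GENCODE transcript begins 6 bases downstream of that start.

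Lef1 coding transcripts also differ in exon 6 of 12 of Lef1-201, an 84-base exon of 28 codons (chr3:131191023-131191106, GRCm38, plus strand). It is held by Lef1-201 and Lef1-203 and is absent from Lef1-202 and Lef1-204. It is shown because skipping it sets the form that dominated, and no letter is in capitals:
Lef1 exon 6: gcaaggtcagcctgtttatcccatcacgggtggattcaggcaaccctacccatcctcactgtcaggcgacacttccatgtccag
Transcripts without this exon made up all 5.19 TPM of coding Lef1 in replicate 1. In replicate 2 they made up 73.2%, or 0.82 TPM without the exon and 0.30 TPM with it. The count behind the form with the exon was 0 in replicate 1 and 12.0 in replicate 2. By these point estimates, the exon-skipped form was the main coding one in both libraries. By the deposited posterior mean, the gap in replicate 2 was smaller. There Lef1-202 and Lef1-204 held 28.2% and 21.0% of the gene's TPM, against 22.7% for Lef1-203 and 11.9% for Lef1-201. The deposited lower bound of Lef1-202 in replicate 2 was 2.81e-06 TPM, so the main form there is uncertain. Exons of Lef1 share 1208 of 8788 bases with Gm43352, an antisense gene that had no value in the tables. The use of strand in counting was not stated, so reads of the pair cannot be told apart.

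**Figure D4:**
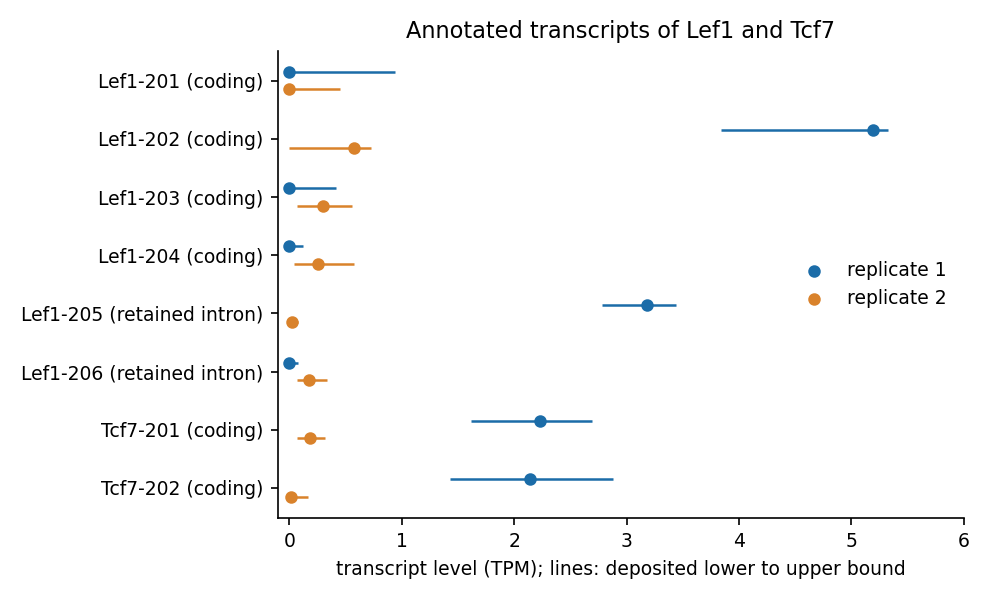
Level in TPM of each annotated Lef1 and Tcf7 transcript, replicate 1 (blue) above replicate 2 (orange), with lines from the deposited lower to the deposited upper bound, whose level is not stated. Lef1-202 at 5.19 TPM and Lef1-205 at 3.18 TPM stand out in replicate 1, and every transcript of replicate 2 lies at or below 0.57 TPM.

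Tcf7 had a pair of annotated transcripts. Tcf7-201 held 51.1% of its TPM in replicate 1 and 92.8% in replicate 2, and Tcf7-202 held 48.9% and 7.21%. Replicate 2 had 7.59 and 0.41 expected counts on them, so no shift between the transcripts could be shown at such counts. Their coding sequences are identical, at 303 codons, and their starts lie 443 bases apart. The shares therefore do not separate the long Tcf7 protein, which binds beta-catenin, from the short one, which lacks that end. The RefSeq window around the start of Tcf7-202 (chr11:52282965-52283264, GRCm38.p6, minus strand) is shown because it holds an upstream ATG, in capitals, that lies outside both annotated transcripts:
Tcf7 window: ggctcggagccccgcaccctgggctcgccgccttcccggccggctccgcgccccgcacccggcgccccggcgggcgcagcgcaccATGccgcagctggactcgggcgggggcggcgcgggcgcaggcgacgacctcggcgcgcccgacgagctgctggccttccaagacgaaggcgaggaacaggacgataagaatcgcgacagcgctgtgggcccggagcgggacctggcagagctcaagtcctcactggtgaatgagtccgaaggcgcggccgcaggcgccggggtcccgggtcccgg
This ATG lies 165 bases before the RefSeq start. Read from it across the annotated transcript, the frame is open for 419 codons, which adds 116 codons to the annotated 303 and joins them in frame.

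Tcf7l2 stood apart by how little of its TPM lay on coding transcripts. Its 12 coding transcripts held 12.7% of its TPM in replicate 1 and 26.9% in replicate 2, or 4.34 and 2.98 TPM. By expected counts they held 10.3% in replicate 1 and 52.6% in replicate 2. On these transcripts alone the difference between the libraries was 0.42 on the log2(TPM + 1) scale, and the gene was no longer over 2-fold apart. The most abundant transcript was Tcf7l2-206, with a retained intron, at 39.5% in replicate 1 and 45.2% in replicate 2. Tcf7l2-207, also with a retained intron, held 16.3% and 5.59%, and the processed transcript Tcf7l2-216 held 17.1% and 5.91%. Coding transcripts from the most upstream start had 0.64 TPM from 82.1 counts in replicate 1 and 2.98 TPM from 196 counts in replicate 2. Those from downstream starts had 3.70 and 0 TPM. The upstream-start forms were thus higher in replicate 2, against the direction of the gene as a whole. A sense-intronic RNA gene within Tcf7l2, Ppnr, had 4.20 TPM from 459 counts in replicate 1 and 1.09 TPM from 67 counts in replicate 2.

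**Figure D5:**
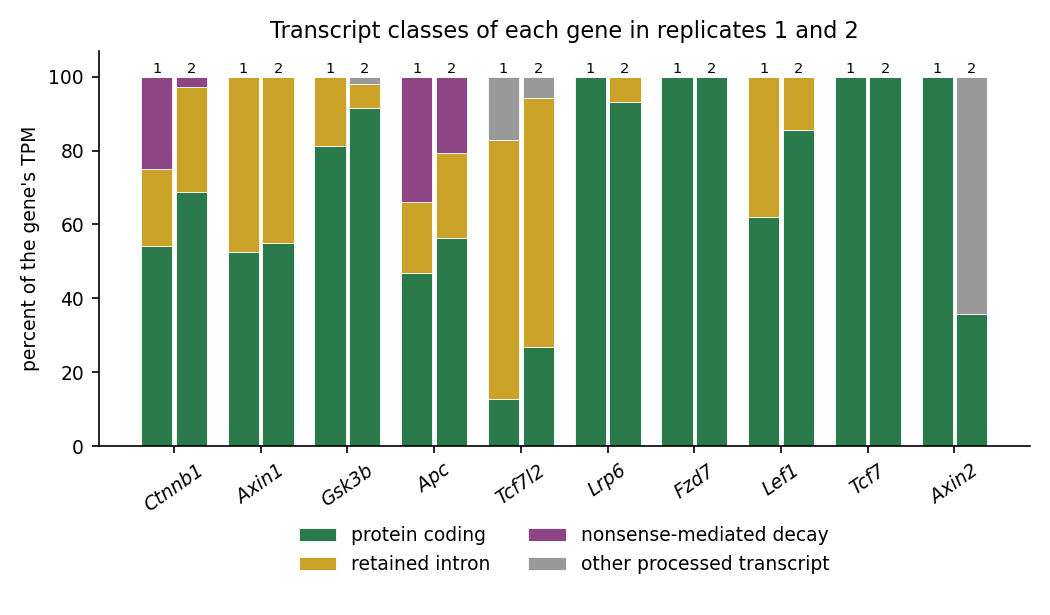
Percent of each gene's TPM on coding, retained-intron, nonsense-mediated decay and other transcripts, with replicate 1 left of replicate 2 for each gene. Coding transcripts hold 12.7% and 26.9% of Tcf7l2, and 100% of Fzd7 and Tcf7 in both libraries.

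The other genes differed in the same respect. Over 7364 coding genes with several transcripts, the median share of TPM on coding transcripts was 81.9% in replicate 1 and 74.0% in replicate 2. Ctnnb1 had 54.1% and 68.7%, Axin1 52.5% and 55.0%, Apc 46.7% and 56.4%, Gsk3b 81.2% and 91.4%, and Lrp6 100% and 93.0%. Ctnnb1, Axin1, Apc and Tcf7l2 were thus below the median of the TPM shares in both libraries. By expected counts, coding transcripts held 73.7% and 76.7% of Ctnnb1 and 80.7% and 83.0% of Apc. On coding transcripts, Ctnnb1 had 27.7 TPM in replicate 1 and 37.0 TPM in replicate 2, still the highest mean. Axin1 had 29.3 and 20.0 TPM, Gsk3b 24.0 and 25.7 TPM and Apc 13.5 and 14.6 TPM.

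Short transcripts weigh heavily on such shares. Axin1-205, a retained-intron transcript of 291 bases, held 47.5% of the Axin1 TPM in replicate 1 and 45.0% in replicate 2, although it had 144 and 48.1 of the expected counts. Coding transcripts held 93.5% and 96.1% of the Axin1 counts. Among them, Axin1-203 held 31.1% and 22.5% of the TPM, whereas Axin1-201 held 0.30% in replicate 1 and 31.1% in replicate 2. Coding Ctnnb1-214 was the main Ctnnb1 transcript, at 54.1% and 59.6%, and its length is 3422 bases in the deposited tables and 2702 bases in the later annotation used here for names. The retained-intron transcript Ctnnb1-209 held 20.9% and 26.9%, and Ctnnb1-204, a target of nonsense-mediated decay, held 25.1% and 2.84%. Exons of Ctnnb1 share 759 of 5192 bases with the opposite-strand gene Ulk4, at 0.19 and 0.45 TPM.

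For Apc, coding Apc-203 held 45.2% of the TPM in replicate 1 and 31.5% in replicate 2. The decay target Apc-205 held 33.8% and 20.0%, and the retained-intron transcript Apc-208 held 19.4% and 19.1%. Axin2-201 held all of the Axin2 TPM in replicate 1 and 35.9% in replicate 2, where the non-coding Axin2-203 held 64.1% from 8.61 counts. Lrp6-201 held 100% and 93.1% of Lrp6, and Fzd7 has a single annotated transcript. Fzd7, Tcf7 and Lrp6, with 1 to 3 annotated transcripts each, had at most 6.97% of their TPM outside coding transcripts in either library.

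Ratios of gene TPM within a library had the same sign in both libraries for all 8 pairs of relatives. The log2 ratio of Lrp6 to Lrp5 was -1.18 in replicate 1 and -0.86 in replicate 2, and that of Fzd7 to Fzd6 averaged 1.23 ± 0.39 (SD, n = 2). Tcf7 to Lef1 gave -0.92 and -2.27, and Tcf7l2 to Tcf7 gave 2.93 and 5.27. The order Tcf7l2, Lef1, Tcf7 thus held in both libraries on gene TPM, but not on coding transcripts. There the ratio of Tcf7l2 to Tcf7 was -0.01 in replicate 1 and 3.41 in replicate 2, the only pair whose sign differed between libraries. The excess of Lrp5 over Lrp6 also nearly went on coding transcripts, where their ratio was -0.06 in replicate 1 and -0.18 in replicate 2. The widest spread was that of Ctnnb1 to Jup, at 6.22 ± 2.63, and the narrowest that of Gsk3b to Gsk3a, at -0.88 ± 0.09 (SD, n = 2).

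Of 14 nuclear co-factors, partners of the TCF/LEF factors, 13 were detected in both libraries, where 45.5% of nuclear protein coding genes were. The list was chosen with earlier results of these data known, so that share is only described. The corepressor Ctbp1 had 79.9 TPM in replicate 1 and 77.6 TPM in replicate 2, the Groucho corepressor Tle3 had 76.8 and 44.8 TPM, and the acetyltransferases Ep300 and Crebbp had 58.7 and 55.1 TPM and 42.4 and 38.4 TPM. Hipk2 had 39.2 and 40.3 TPM. Of the 13, 4 were over 2-fold higher in replicate 1 by TPM, where 10.1% of coding genes were, and 1 was on counts scaled by TMM, where 5.34% were. That gene was the Groucho corepressor Tle1, singled out after its values were seen, with 13.4 and 2.83 TPM and a TMM difference of 1.07. Its relative Tle2 turned direction, with 34.4 and 8.47 TPM but a TMM difference of -0.30.

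Genes described as targets of the pathway gave no common level. Of 13, which include Axin2, Lef1 and Tcf7, 5 were detected in both libraries. Myc had 287 TPM in replicate 1 and 172 TPM in replicate 2, Cd44 had 87.8 and 62.6 TPM, and the cyclin gene Ccnd1 had 48.6 and 4.57 TPM. The Ccnd1 gap was far smaller on counts, at 543 in replicate 1 and 235 in replicate 2, a TMM difference of 0.25. Sp5 and Nkd2 had no count in either library, and Nkd1 had 0 and 1 count. Axin2, the feedback target, was therefore low while Myc, which many other inputs also drive, was among the highest. Over all 120 listed pathway genes, 56 were detected in both libraries and 39 had no count in either. The detected share was close to the 45.5% of all nuclear protein coding genes, so it was not particular to the pathway. Of the 56, 10 were over 2-fold higher in replicate 1 and 1 in replicate 2 on the log2(TPM + 1) scale, against 10.1% and 5.35% of coding genes. On counts scaled by TMM they were 5 and 2, against 5.34% and 5.99%, so the balance depended on the scaling.

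A TCF/LEF-like motif was looked for in RefSeq promoter windows, from 250 bases before to 50 bases after each start (GRCm38.p6). The letters CTTTGAA were searched on both strands, as were the forms ending otherwise, which are CTTTGAT in one case, then CTTTGTA in another, and finally CTTTGTT as the last. At least 1 form was present in 16.9% of all 32851 windows. Among the members, 1 of 4 Lef1 windows, 1 of 2 Tcf7l2 windows and the single Fzd7 window held a match. No window of Ctnnb1, Axin2, Gsk3b or Tcf7 did, and Apc, Axin1 and Lrp6 had no entry. A match is a description of letters in the window and not of binding.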

How the data were processed

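Total RNA was sequenced from 2 pools of 100 mouse hematopoietic stem cells. Expected counts were deposited by the authors per gene and per transcript as estimated reads, unnormalized. TPM values were deposited by the authors on a fixed total per library, with a posterior mean and lower and upper bounds beside them. Beside them, FPKM values were deposited by the authors. For transcripts, the authors also deposited the percent of the gene's TPM that each one carries. The build was mm10 with GENCODE M4 annotation, per the text files deposited with the samples, and no source used here names the aligner, the quantification program or a version.

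Gene names, transcript classes and coordinates were taken from GENCODE M21 of the same build (GRCm38), which named 42462 of 43346 gene identifiers and lacked 2129 of 103639 transcripts. Sequences came from that release and from RefSeq promoter windows. Detection needed 1 TPM and 10 expected counts in both libraries. Differences were log2(TPM + 1) of replicate 1 minus replicate 2, called past 2-fold, and ratios used TPM + 0.1. No test was made with 1 group. Calls of fold differences were tested on simulated data with counting error only, so that check did not cover other variation between pools. Intervals were exact Poisson at 95%, and the limit of a zero count was 3 counts. Both treat an estimated TPM as proportional to its count and cover counting error only. Python 3.11.15 with pandas 2.3.3, numpy 2.4.6, scipy 1.17.1 and matplotlib 3.10.9 was used. As alternatives, expected counts were scaled by edgeR 4.0.16 (TMM) and, after rounding, by DESeq2 1.42.0 size factors in R 4.3.3. Other alternatives changed the threshold, count minimum, pseudocount and unit, and coding transcripts alone were added after seeing the data.

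The members and lists were chosen with earlier results of these data known. All 10 members were named with every transcript of Lef1 and Tcf7, and, for other members, transcripts with a mean share of at least 10%. Of each pathway list the 5 genes of highest mean TPM were named, with any below detection in only 1 library. Over 2 libraries every gene correlates perfectly with every other, so no gene of like pattern was named. The upstream annotated start was planned as the mark of the beta-catenin binding form. This did not hold for Tcf7, whose transcripts share a coding sequence.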

Additional observations from a re-analysis of the deposited data

How the results depend on the processing

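The number of members detected in both libraries was 8 and lay between 7 and 9 over the other thresholds, count minimums and units and with either library left out. The number over 2-fold apart was 2 under every scaling tried and fell to 1 on coding transcripts alone, where Tcf7l2 differed by 0.42, by construction of counting only those transcripts. It was 3 with no filter on low values, where Tcf7 joined. The median level of the 10 members, 15.7 TPM, was 54.8 when TPM was rescaled to nuclear protein coding genes, by the construction of that scale, and lay between 11.2 and 20.2 with a library left out. The mean share of Lef1 on upstream-start transcripts, 62.2%, was 60.7% from the posterior mean and 66.0% of expected counts, which weigh long transcripts more. It was 62.1% to 62.4% with a library left out. By expected counts the share was larger in replicate 2 than in replicate 1. All 8 ratios between relatives kept one sign in both libraries with a pseudocount of 1 TPM and with the posterior mean, and 7 did on coding transcripts, where Tcf7l2 to Tcf7 did not. Of 70 differences of single members under an alternative, 68 kept their side of the 2-fold limit, and besides Tcf7l2 the exception was Axin2, at 1.64 from counts over DESeq2 size factors. The number of pathway genes detected, 56, lay between 49 and 60. Of these 56, 10 were over 2-fold higher in replicate 1 and 1 in replicate 2, against 5 and 2 on counts scaled by TMM, and the cause was not tested. No paired analysis was possible because there is a single group, and a difference between the libraries could not be computed without either of them. Low counts limit Tcf7, Axin2 and the Lef1 transcripts most, with 8, 19 and 67 counts in replicate 2, and the part of depth in these was not tested.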

Other observations

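The planar polarity and calcium branch, which signals from Frizzled without beta-catenin, was also measured. Of 12 genes, 9 were detected in both, where 45.5% of nuclear protein coding genes were. The list median stood at 4.91 TPM in replicate 1, against 4.82 in replicate 2. The calcium-responsive factors Nfatc3, Nfatc1 and Nfatc2 had 47.6, 25.4 and 15.2 TPM in replicate 1 and 37.1, 19.8 and 11.3 TPM in replicate 2. Polarity genes were less even. Vangl2, a core polarity membrane protein, had 15.6 and 4.32 TPM, while its relative Vangl1 had no count in replicate 1 and 2.60 TPM in replicate 2. Daam1, which links Dishevelled to actin, had 5.65 and 17.9 TPM and was the only one of the 56 listed pathway genes detected in both libraries to be over 2-fold higher in replicate 2 on the log2(TPM + 1) scale. On counts scaled by TMM, Ryk was as well.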
